A study of Mus musculus with 4 samples.

Results

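Genes of the TGF-beta pathway were followed through human immune cells of the blood and the injured spinal cord of humanised mice. The 8 genes chosen from the 33538 human genes of the count tables were the ligand TGFB1 (ENSG00000105329), the receptors TGFBR1 (ENSG00000106799) and TGFBR2 (ENSG00000163513), the receptor-regulated SMADs SMAD2 (ENSG00000175387) and SMAD3 (ENSG00000166949), the inhibitory SMAD7 (ENSG00000101665) and the corepressors SKI (ENSG00000157933) and SKIL (ENSG00000136603). They were chosen for their place in the pathway, and read in barcodes with over 50% of their unique molecular identifiers (UMIs) on human genes. Every one of the 8 had UMIs in each of the 4 libraries.

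TGF-beta is secreted in a latent complex and has to be released from it before it can bind. The active ligand binds TGFBR2, which then phosphorylates TGFBR1, and TGFBR1 in turn phosphorylates SMAD2 and SMAD3. These enter the nucleus with SMAD4 and act on target genes, among them SMAD7 and SKIL, whose products restrain the signal. In the immune system, TGF-beta is best known for restraining effector T cells, for supporting the FOXP3-positive regulatory T cell (Treg) programme and for driving class switching in B cells.

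Human CD45+ cells were sorted from NSG-SGM3 mice. The labels give the background as NOD.Cg-Prkdcscid with IL2rgtm1Wjl and the transgene Tg(CMV-IL3,CSF2,KITLG)1Eav/MloySzJ, that is, an immunodeficient strain without lymphocytes of its own in which a CMV promoter drives human IL3, CSF2 and KITLG. All mice carried that transgene and were irradiated and engrafted as pups with human cord blood CD34+ cells. The 4 droplet-based scRNAseq libraries, each a pool of animals, were blood of naïve mice without surgery, blood of sham mice at 7 days after a T9 laminectomy, and blood and spinal cord of mice at 7 days after a T9 spinal cord injury (SCI). The labels give an age of 15 weeks for all mice. Naïve and sham libraries came from male hosts and both SCI libraries from pooled male and female hosts, so that host sex and injury cannot be told apart. Each group has 1 library, so the spread between animals is unknown, no test was made and no p-value is given. Values are given as CPM, the UMIs of a gene scaled to 1e+06 of the summed human UMIs of a library or cell class, without ribosomal and mitochondrial genes. The 95% intervals in brackets are exact and cover counting error only.

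Blood gave 6323 cells from naïve, 4648 from sham and 5931 from SCI mice, and the cord gave 118. The median number of human UMIs per cell was 3697, 5232, 4655 and 9331 in the same order. PTPRC, which encodes CD45, had a UMI in 96.6% to 99.4% of the cells kept. The sort also left 1411, 1990, 1230 and 93 barcodes of mouse cells. Pairs of libraries shared at most 10 cell barcodes. In the mouse barcodes, which should lack human transcripts, a UMI of a given human gene of the 8 was found in at most 1.14% of blood barcodes, at a median of 15 to 21 human UMIs. In cord these barcodes carried a median of 26533 mouse UMIs, and mouse Skil, Smad7 and Tgfbr1 had 367, 254 and 542 UMIs there against 2, 0 and 0 UMIs of human SKIL, SMAD7 and TGFBR1. Human UMIs made up at least 94.7% of the species total in every cord cell kept.

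Cells of all libraries were clustered together without the 8 genes or the pathway genes discussed further on among the clustering genes, which gave 12 clusters. Names mean only resembling a type by its markers. A cluster of 1646 cells led by FZD3, GNG4, IGFBP4 and PDCD1, of which 86.3% had a general T cell marker, stayed unnamed, since no class had at least 3 detected markers with a median fold over 1 in it. The B-like class was made of a cluster of 2376 cells led by TCL1A and a cluster of 418 cells led by MPP6 and CCL17, of which 26.3% were marked as possible doublets. None of the 10 leading genes of the second was a B cell marker, and it took its name from the median fold of the B cell markers alone. The naïve T-like name rested on NOG alone among its leading genes. Plasma-like cells numbered 388 in naïve blood and 3, 3 and 2 in sham blood, SCI blood and SCI cord. CD4 helper, CD8, cytotoxic memory, naïve, Treg-like and unnamed T cells are together called the T clusters.

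TGFB1 encodes the main TGF-beta ligand of immune cells. Across all cells its level was 231 CPM in naïve blood (225 to 237), 248 in sham blood (241 to 255), 277 in SCI blood (270 to 285) and 259 in SCI cord (229 to 292). It was the most widely detected of the 8, with a UMI in 51.0%, 60.4%, 58.1% and 77.1% of cells. With each cell thinned to 1000 UMIs these shares became 17.0%, 17.0%, 17.9% and 17.8%, so that the higher share in cord went with its depth.

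**Figure D1:**
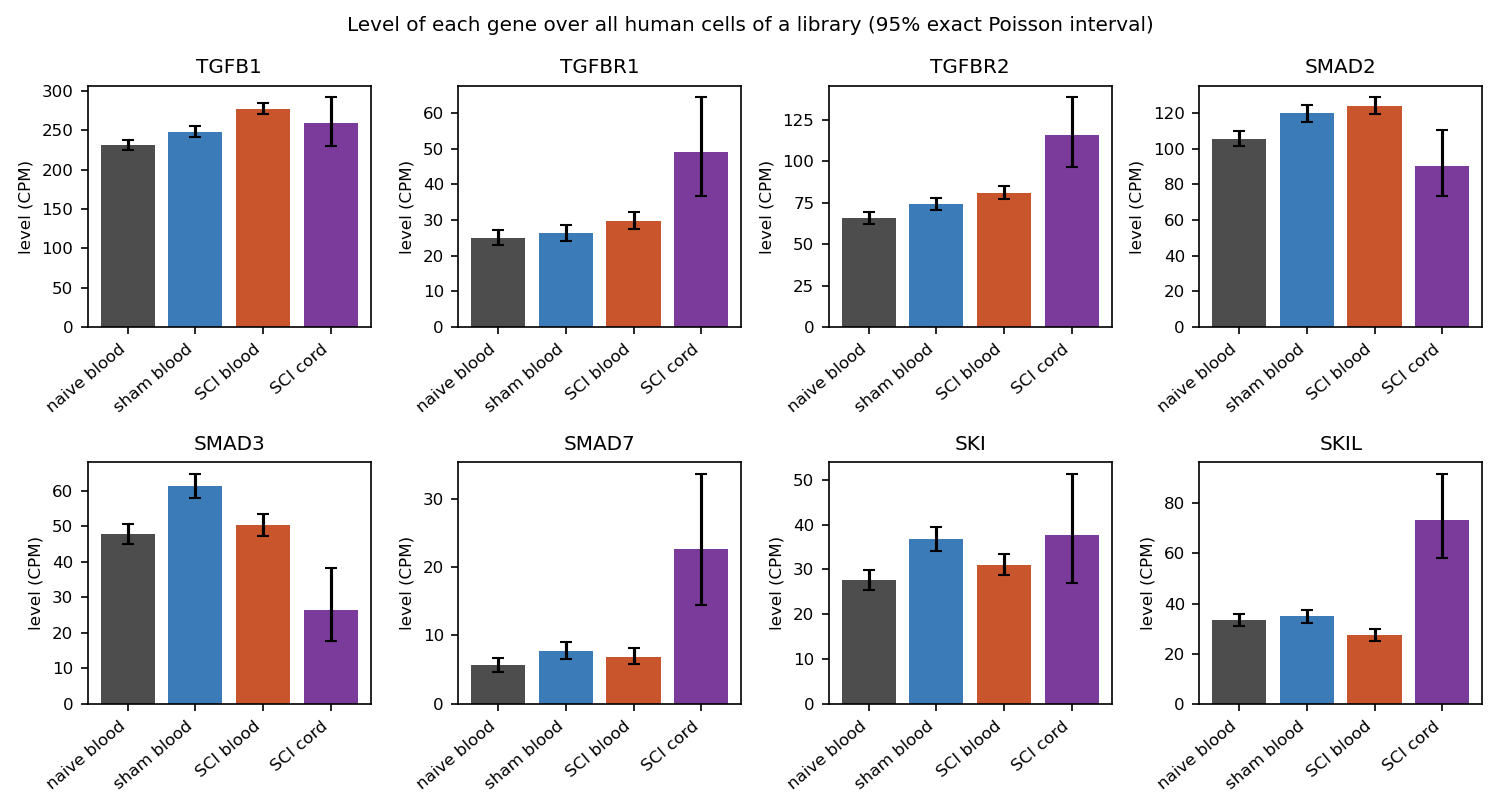
Level of each gene in CPM over all human cells of naïve blood, sham blood, SCI blood and SCI cord (bars, from 0), with exact 95% Poisson intervals. SMAD7, SKIL, TGFBR1 and TGFBR2 stand highest in SCI cord and SMAD3 lowest there, each with an interval clear of the 3 blood libraries. SKI is also highest and SMAD2 lowest in cord, with intervals that overlap those of naïve blood. The 3 blood libraries lie close together for all 8 genes.

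The ligand varied less over the classes than the receptors did. B-like and cycling cells were lower than the T clusters, by log2 ratios of −0.55 ± 0.069 and −0.48 ± 0.036 (mean ± SD over the 3 blood libraries). Against the other T clusters, naïve T-like and unnamed T cells were lower, by −0.59 ± 0.20 and −0.45 ± 0.053. Treg-like and CD4 helper T-like cells were higher, by 0.24 ± 0.039 and 0.18 ± 0.069. Between the highest and the lowest of the 10 classes with at least 10 cells in every blood library, TGFB1 differed 1.57-fold in naïve blood, 2.13-fold in sham blood and 2.18-fold in SCI blood. Treg-like cells led in naïve blood at 323 CPM, and cytotoxic memory T-like cells led in sham and SCI blood at 327 and 399 CPM. The intervals of these leading classes overlapped with those of the next class in every blood library. In a finer clustering an unnamed cluster led in all 3, other than the unnamed T cells above. It held 445 cells led by ZNF683, LINC02446, TRGC2 and HOPX, of which 27.0% were marked as possible doublets. Plasma-like cells of naïve blood, which are secretory cells with few abundant transcripts, held the lowest TGFB1 level at 84.4 CPM (76.0 to 93.4). This held for CPM only. At a median of 12792 UMIs per cell, they had 95.6 TGFB1 UMIs per 100 cells. Treg-like cells had 82.5, B-like cells 59.3 and monocyte-like cells 148.

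TGFBR1 encodes the type I receptor, the kinase that passes the signal to SMAD2 and SMAD3. Its level across all cells was 24.99 CPM in naïve blood, 26.3 in sham blood and 29.7 in SCI blood. Behind these close values lay a wide range over classes, of 10.7-fold, 11.3-fold and 7.46-fold in the same order. Basophil or mast-like cells had the highest level in all 3 blood libraries, at 117 CPM (80.0 to 165), 125 CPM (98.2 to 158) and 94.3 CPM (69.0 to 126). Monocyte-like cells came next in naïve and sham blood at 93.7 and 85.7 CPM, with intervals that overlapped those of basophil or mast-like cells and lay clear of the class below. In SCI blood only 18 monocyte-like cells were left, and basophil or mast-like cells lay clear of all other classes but these.

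Among T cells, TGFBR1 was highest in CD8 T-like cells and low in CD4 helper T-like and unnamed T cells. CD8 T-like cells had 51.6, 46.4 and 48.1 CPM in naïve, sham and SCI blood. CD4 helper T-like cells had 10.9, 12.9 and 15.1 CPM, and the unnamed T cells 14.8, 11.1 and 16.2 CPM. Against the other T clusters of the same library, CD8 T-like cells were higher by a log2 ratio of 1.32 ± 0.15 (mean ± SD over the 3 blood libraries) and CD4 helper T-like cells differed by −1.20 ± 0.29. The direction was the same in all 3 blood libraries for both classes. Treg-like cells lay between them at 28.7, 20.9 and 17.4 CPM, with ratios of 0.26 (−0.14 to 0.63), −0.020 (−0.42 to 0.35) and −0.80 (−1.33 to −0.35) to the other T clusters. Their intervals overlapped those of cytotoxic memory T-like cells, at 35.1 and 24.3 CPM, in naïve and sham blood.

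TGFBR2 encodes the type II receptor, which binds the ligand first. Across all cells it stood at 65.7 CPM in naïve blood, 74.1 in sham blood and 81.1 in SCI blood. Treg-like cells had less of it than any other T class, with 18.4 CPM in naïve blood (13.7 to 24.1), 17.3 in sham blood (13.3 to 22.2) and 23.9 in SCI blood (17.99 to 31.1). The other T clusters together had 76.4, 85.3 and 81.2 CPM. Treg-like cells thus differed from them by a log2 ratio of −2.03 ± 0.27 over the 3 blood libraries, and in each library their interval lay below that of every other class but the plasma-like cells. The shortfall was seen in both Treg-like clusters of a finer clustering, with 19.1, 18.8 and 23.4 CPM in the larger and 17.99, 11.7 and 18.5 CPM in the smaller, which was led by FOXP3, CTLA4 and IL2RA.

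After thinning to 1000 UMIs, 1.09%, 1.13% and 1.83% of Treg-like cells had a TGFBR2 UMI, against 8.16%, 8.52% and 6.64% of CD8 T-like cells. Without thinning the shares were 4.52%, 5.36% and 7.33% against 23.0%, 33.9% and 24.8%. The Treg-like shares lay above the 0.354% to 0.407% of mouse barcodes with a human TGFBR2 UMI.

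B-like cells had 130 CPM of TGFBR2 in naïve blood, 121 in sham blood and 135 in SCI blood. Monocyte-like cells had 122, 129 and 108 CPM and CD8 T-like cells 109, 129 and 101 CPM. The intervals of these leading classes overlapped, except that B-like cells lay above CD8 T-like cells in SCI blood. Both B-like clusters were high, with 144, 124 and 134 CPM in the TCL1A cluster and 100.2, 98.7 and 155 CPM in the other.

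**Figure D2:**
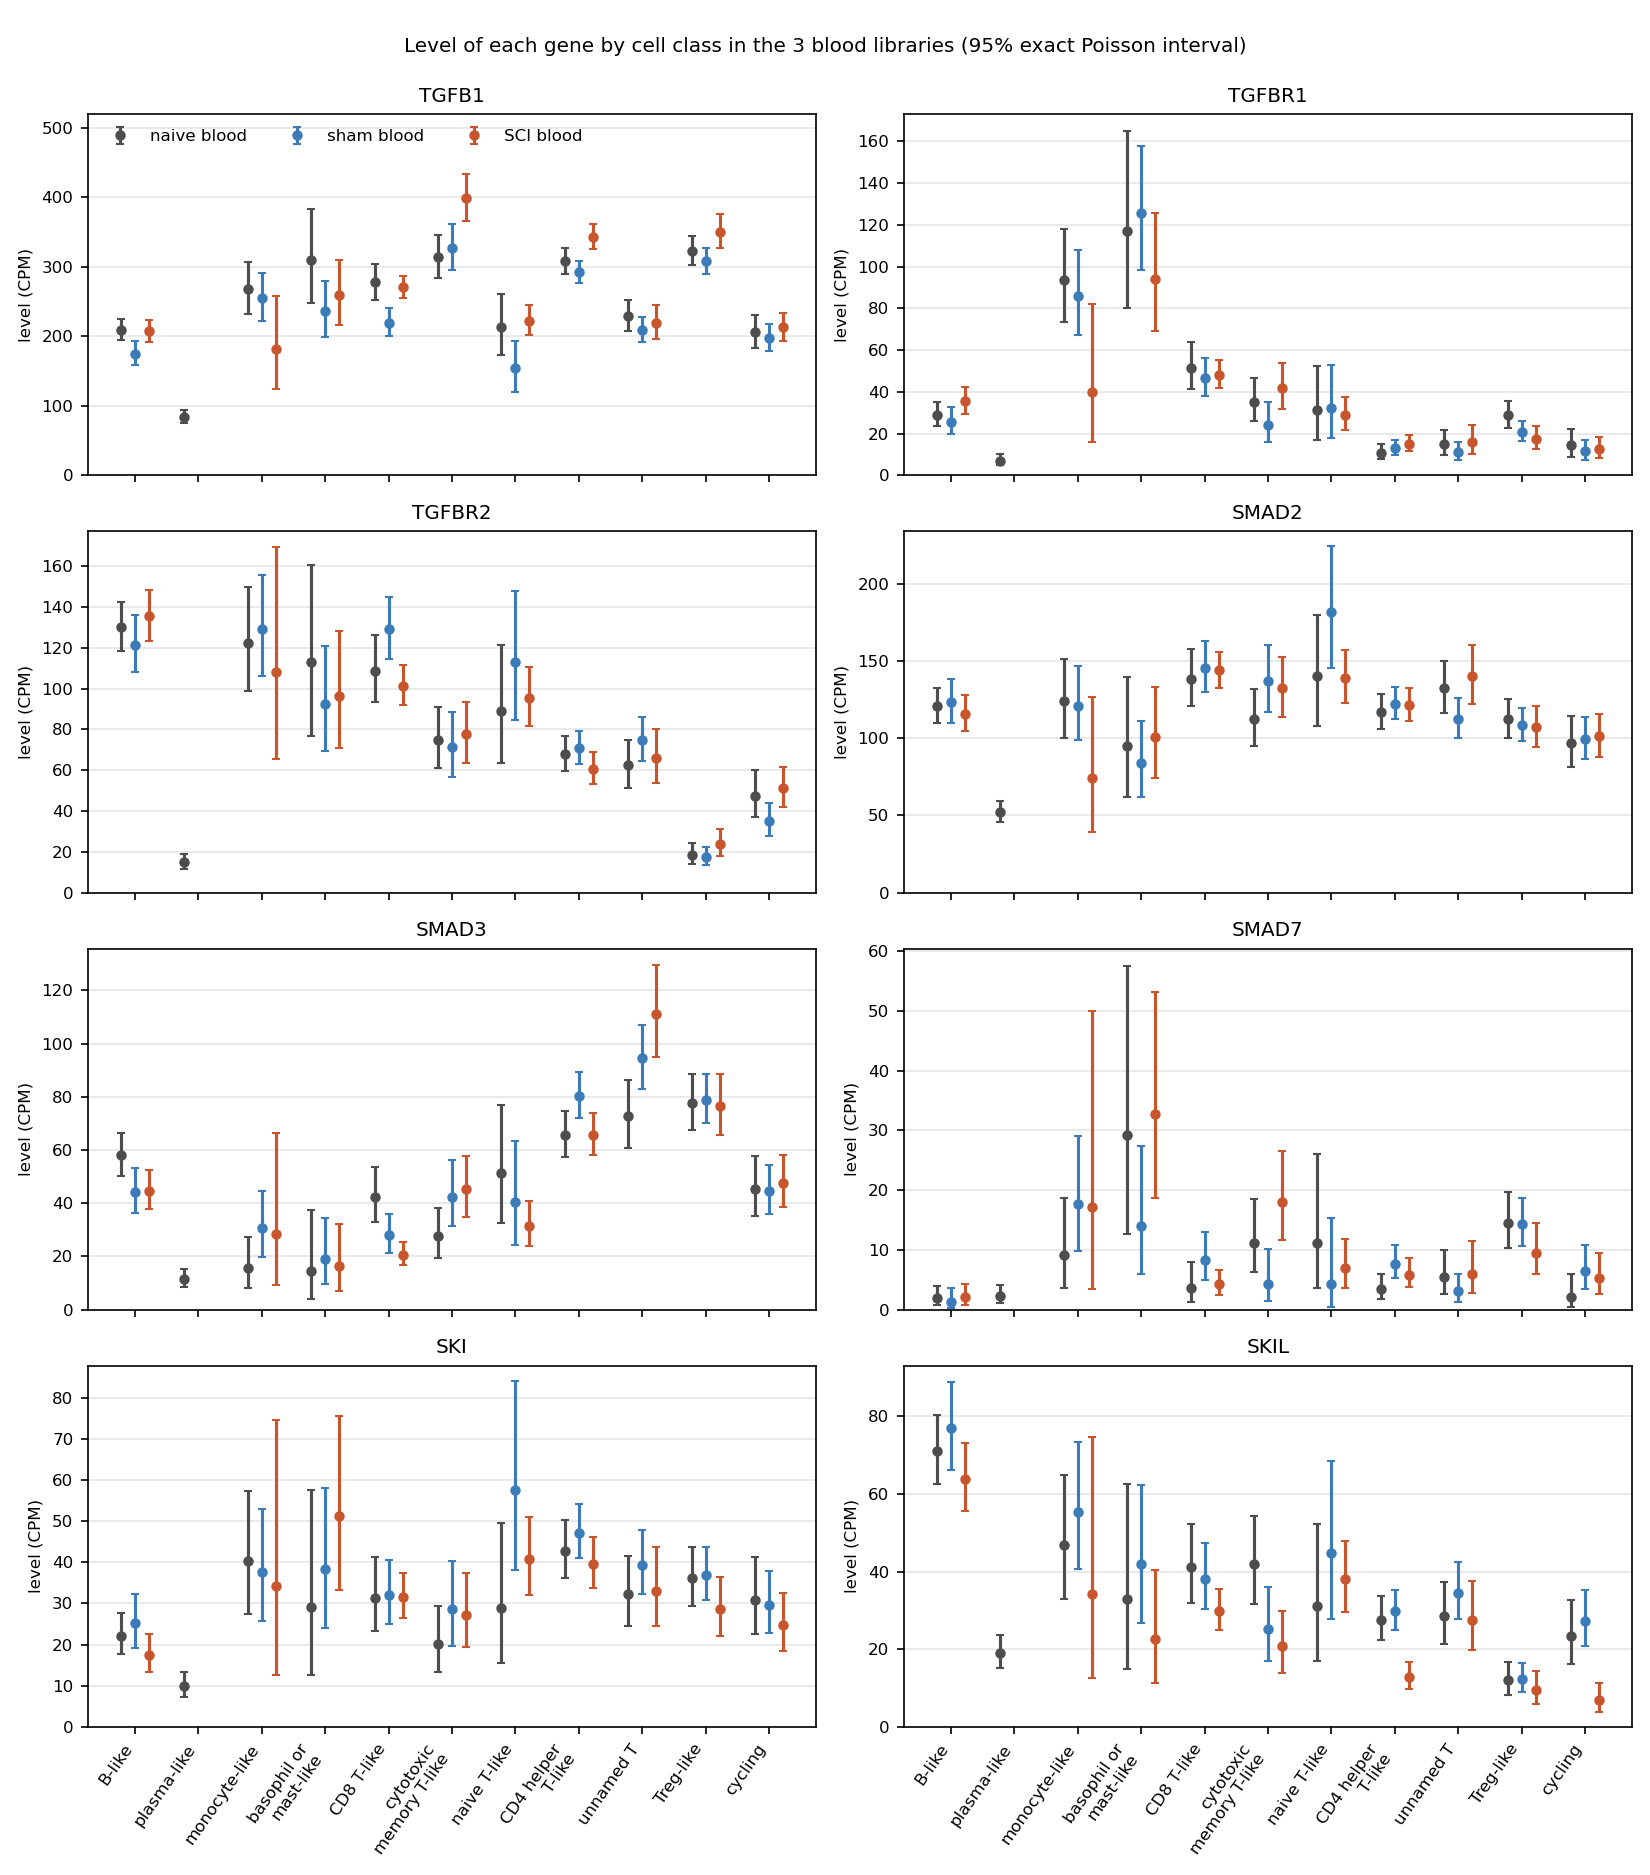
Level in CPM of each gene by cell class in naïve, sham and SCI blood (points, with exact 95% Poisson intervals; classes with under 10 cells in a library have no point). TGFBR1 peaks in basophil or mast-like and monocyte-like cells, TGFBR2 is lowest among T cells in Treg-like cells, SKIL peaks in B-like cells, and TGFB1 and SMAD2 vary least.

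SMAD2, a receptor-regulated SMAD, had a range over cell classes close to that of the ligand. Its level was 106 CPM in naïve blood, 119.8 in sham blood and 124 in SCI blood, and the highest and lowest classes differed 1.478-fold, 2.17-fold and 1.94-fold. Naïve T-like cells led in naïve and sham blood at 140.4 and 182 CPM, and CD8 T-like cells in SCI blood at 144 CPM, each with an interval that overlapped the next.

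SMAD3, the other receptor-regulated SMAD, was unevenly spread. It was highest in CD4-type and unnamed T cells and low in myeloid cells. In naïve blood it reached 77.5 CPM in Treg-like cells (67.6 to 88.5), 72.7 in unnamed T cells (60.9 to 86.2) and 65.7 in CD4 helper T-like cells (57.5 to 74.8), with overlapping intervals. In SCI blood unnamed T cells led at 111 CPM (94.8 to 129), clear of Treg-like cells at 76.4 CPM (65.5 to 88.6). In a coarser clustering Treg-like cells led there, and in a finer one CD4 helper T-like cells. Neither clustering kept these unnamed T cells as an unnamed class. All clusters of the coarser one were named. In the finer one a cluster of 1233 cells led by FZD3, GNG4, AHI1 and PDCD1 was named CD4 helper T-like. Basophil or mast-like cells had the lowest level of the 10 classes in all 3 blood libraries, at 14.6, 19.2 and 16.4 CPM, from 4, 11 and 8 UMIs. Monocyte-like cells had 15.6, 30.5 and 28.5 CPM, with intervals that overlapped those of basophil or mast-like cells in each. Those of CD8 T-like cells overlapped them too. TGFBR1 and SMAD3 had a Pearson r of −0.59 over 30 class-by-library points, the lowest of the 28 pairs of genes, and a description only, since points of a library share its cells and depth.

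SMAD7 is an inhibitory SMAD that blocks the type I receptor, and it was the scarcest of the 8 in UMIs. It had 124 UMIs (5.62 CPM) in naïve blood, 159 (7.74 CPM) in sham blood and 148 (6.89 CPM) in SCI blood. B-like cells had the least in all 3 blood libraries, at 1.94, 1.24 and 2.11 CPM from 7, 3 and 7 UMIs. Their intervals overlapped those of the next class in each library. Basophil or mast-like cells were at 29.2, 13.9 and 32.8 CPM, from 8, 8 and 16 UMIs. Treg-like cells, low in TGFBR2, had 14.5 CPM of SMAD7 in naïve blood (10.4 to 19.7), 14.3 in sham blood (10.7 to 18.7) and 9.55 in SCI blood (5.99 to 14.5). Against the other T clusters this was a log2 ratio of 1.40 (0.76 to 2.03), 1.21 (0.65 to 1.75) and 0.52 (−0.25 to 1.18), the last with an interval that includes 0.

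SKI and SKIL encode corepressors that bind SMAD complexes and keep target genes silent. SKI had 27.6 CPM in naïve blood, 36.8 in sham blood and 31.0 in SCI blood, and its highest and lowest classes differed 2.12-fold, 2.29-fold and 2.93-fold, with a different leading class in each. SKIL had 33.5, 34.9 and 27.3 CPM and a wider spread. B-like cells led in SKIL in all 3 blood libraries, at 71.0 CPM (62.6 to 80.3), 76.9 CPM (66.2 to 88.7) and 63.8 CPM (55.5 to 73.0), higher than the T clusters by a log2 ratio of 1.45 ± 0.082. The TCL1A cluster had 81.0, 76.4 and 63.3 CPM and the other B-like cluster 49.6, 80.4 and 69.9 CPM. Treg-like cells were low, at 12.03, 12.4 and 9.55 CPM, and differed from the other T clusters by −1.38 ± 0.048. In SCI blood they were not alone in this. Cycling cells had 6.80 CPM there and CD4 helper T-like cells 12.9 CPM, with intervals that overlapped that of Treg-like cells.

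Treg-like cells thus combined low TGFBR2 and SKIL with SMAD3 at the high end of the T cells, at a log2 ratio of 0.44 ± 0.21 against the other T clusters. B-like cells combined high TGFBR2 and SKIL with the lowest SMAD7, the last on few UMIs and with intervals that overlapped those of other classes. Basophil or mast-like cells combined the highest TGFBR1 with the lowest SMAD3 among the 10 classes. These comparisons of a class with the other T clusters were chosen after the data had been seen. TGFBR2 and SKIL had the highest r among the 28 pairs, 0.76 over the same 30 points.

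Genes whose levels followed each of the 8 most closely over these 30 points, covering 11 classes, were sought among 6619 genes. TGFBR1 was nearest to GNPTAB, FCER1G and IFITM3 (r = 0.91, 0.89 and 0.88), and FCER1G encodes a signalling chain of Fc receptors in myeloid cells. TGFBR2 was nearest to LPGAT1, ARMH1 and C1orf162 (0.89, 0.86 and 0.86), and SMAD3 to ZNF292, HIVEP3 and FNBP1 (0.90, 0.86 and 0.85). TGFB1 was nearest to PPP1R18, MYO1F and IL10RA (0.85, 0.84 and 0.83), the last a receptor chain for IL-10. SMAD2 was nearest to PIK3CD, TNRC6C and INTS6 (0.90, 0.90 and 0.89), SKI to ARL6IP5, CD46 and HK1 (0.81, 0.81 and 0.80) and SKIL to BLOC1S6, TGFBR2 and SNTB1 (0.76, 0.76 and 0.75). SMAD7 was nearest to PRNP, CHST11 and CTSD (0.80, 0.79 and 0.79), with few SMAD7 UMIs behind its points.

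Sham and SCI blood were compared with naïve blood to see whether surgery or injury went with different levels in the circulation. Across all cells, none of the 8 genes was at least 1.5-fold higher or lower in any of the 3 comparisons of blood libraries, which share libraries with each other. Of all genes with at least 20 UMIs over both libraries, 6.76% were at least 1.5-fold higher and 6.12% lower in sham over naïve blood, 8.71% and 8.61% in SCI over naïve blood, and 5.77% and 6.98% in SCI over sham blood. The widest differences were those of SMAD7 in sham over naïve blood, at a log2 ratio of 0.46 (0.11 to 0.81), and of SKI, at 0.41 (0.26 to 0.57). Over the T clusters these became 0.094 (−0.31 to 0.51) and 0.20 (0.0099 to 0.38), and with the same class weights in both libraries 0.14 and 0.15. SKIL in SCI blood differed by −0.29 (−0.45 to −0.13) from naïve and by −0.35 (−0.51 to −0.19) from sham blood. The median over all genes tested was 0.068, 0.066 and 0.012 in the 3 comparisons.

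Naïve blood differed from the others in its plasma-like cells, 6.14% of its cells against 0.0645% in sham and 0.0506% in SCI blood. In naïve blood, 6 of the 8 genes had their lowest CPM in these cells, all but SMAD7 and SKIL. Over the T clusters alone, which was chosen after the data had been seen, 0 of 8 genes again passed 1.5-fold in the blood comparisons. The shares of all genes that were higher and lower there were 3.28% and 4.78% for sham over naïve blood, 6.41% and 6.35% for SCI over naïve blood and 6.31% and 5.14% for SCI over sham blood. TGFB1, higher in SCI over naïve blood by 0.27 (0.21 to 0.32) across all cells, had 303 CPM in SCI and 292 CPM in naïve blood over the T clusters, a log2 ratio of 0.054 (−0.010 to 0.12).

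Within classes larger differences appeared. In SCI over naïve blood, 5 of 73 pairs of a gene and a class were at least 1.5-fold higher and 9 lower, where 6.28% and 8.12% of all such pairs over all genes were. Of these, 2 and 6 had intervals clear of 0. In sham over naïve blood 6 of 74 pairs were higher and 3 lower, against 5.16% and 6.79% over all genes, with 1 and 2 clear of 0. In SCI over sham blood 3 of 75 were higher and 7 lower, against 6.69% and 6.64%, with 2 and 2 clear. For intervals clear of 0, no share over all genes is given to set beside these counts.

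SMAD3 differed in opposite directions in different T classes. In CD8 T-like cells its level was 42.4 CPM in naïve blood (33.0 to 53.7), 28.0 in sham blood (21.4 to 36.0) and 20.7 in SCI blood (16.6 to 25.5), a log2 ratio of −1.03 (−1.50 to −0.56) for SCI over naïve blood. In unnamed T cells it was 72.7, 94.5 and 111 CPM, a ratio of 0.61 (0.27 to 0.95), and in cytotoxic memory T-like cells 27.7, 42.5 and 45.3 CPM, a ratio of 0.70 (0.10 to 1.34). Sham blood lay between naïve and SCI blood in each of these classes. Naïve T-like cells, with 51.2, 40.6 and 31.6 CPM, had a ratio of −0.72 (−1.42 to 0.065) whose interval includes 0. Treg-like cells stayed within 76.4 and 78.9 CPM. CD8 T-like cells made up 10.5%, 13.4% and 24.4% of the cells in naïve, sham and SCI blood, and whether the cells in this class were of the same kind in the 3 libraries was not tested.

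SKIL was lower in SCI blood than in both other blood libraries in CD4 helper T-like cells and in cycling cells, which are not among the T clusters. In CD4 helper T-like cells it had 27.6 CPM in naïve blood (22.3 to 33.6), 29.7 in sham blood (24.9 to 35.3) and 12.9 in SCI blood (9.64 to 16.8), so that SCI blood differed by −1.09 (−1.61 to −0.60) from naïve and by −1.20 (−1.70 to −0.74) from sham blood. Cycling cells, recognised by MKI67 and TOP2A, had 23.4, 27.3 and 6.80 CPM, the last from 14 UMIs. In cytotoxic memory T-like cells both operated libraries were lower, with 41.9 CPM in naïve blood, 25.2 in sham blood and 20.8 in SCI blood. CD8 T-like cells had 41.2, 38.1 and 29.9 CPM, with ratios of SCI blood of −0.47 (−0.90 to −0.012) to naïve and −0.35 (−0.76 to 0.067) to sham blood, short of 1.5-fold. Unnamed T cells had 28.4, 34.4 and 27.6 CPM and naïve T-like cells 31.2, 44.9 and 38.0 CPM, with intervals of the ratio of SCI over naïve blood that include 0 in both. Treg-like cells, in which SKIL was low, had a ratio of −0.32 (−1.18 to 0.48), and B-like cells, in which it was high, −0.15 (−0.42 to 0.11).

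**Figure D3:**
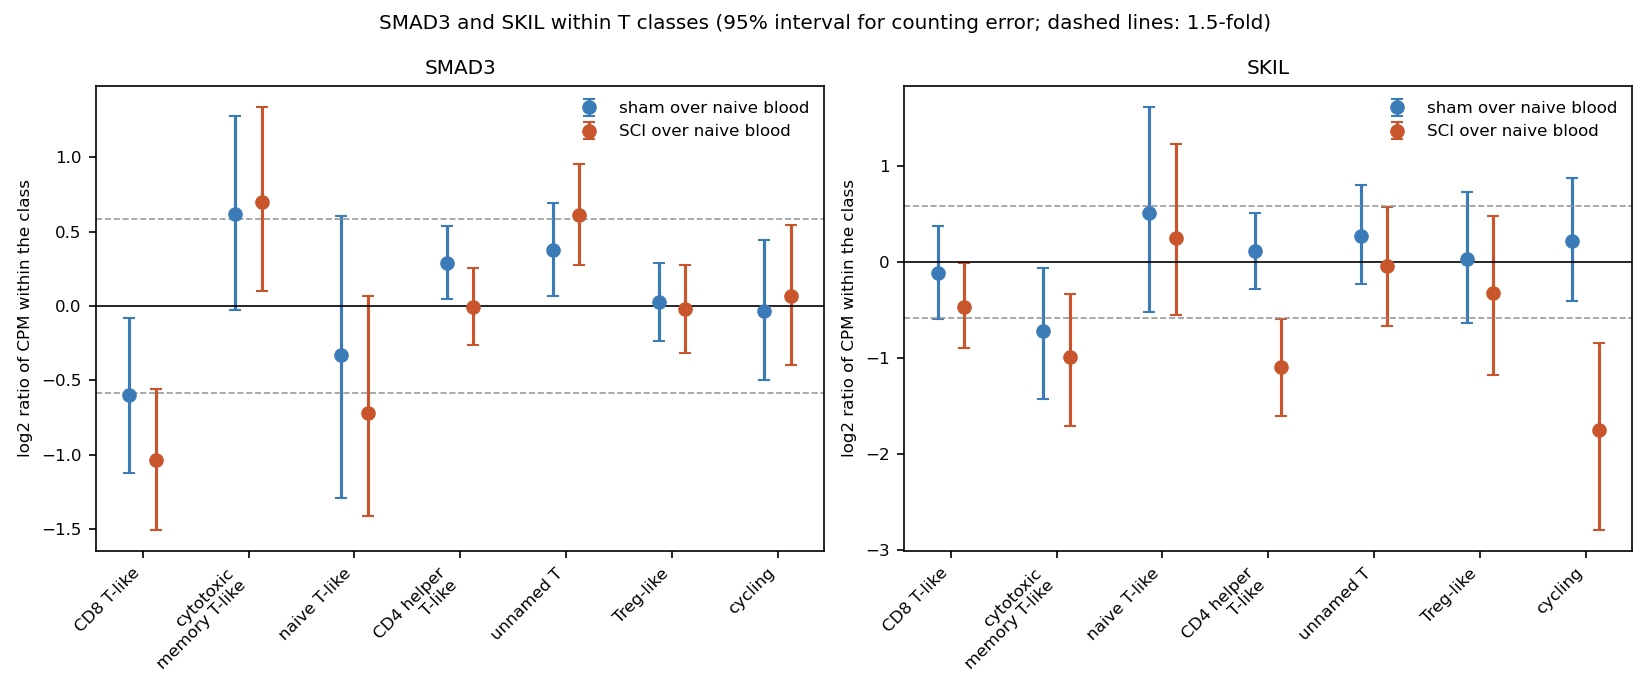
Log2 ratio of the CPM of SMAD3 (left) and SKIL (right) within T classes and cycling cells, for sham over naïve and SCI over naïve blood, with exact 95% intervals for counting error; dashed lines mark 1.5-fold. SMAD3 lies below 0 in CD8 T-like cells and above 0 in cytotoxic memory and unnamed T cells, and SKIL in SCI blood is lowest in cycling and CD4 helper T-like cells.

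The other pairs past 1.5-fold with intervals clear of 0 were of TGFBR1 and SMAD7, most on low counts. TGFBR1 in Treg-like cells was 28.7 CPM in naïve blood, 20.9 in sham blood and 17.4 in SCI blood, a ratio of −0.71 (−1.31 to −0.16) for SCI over naïve blood. In monocyte-like cells TGFBR1 was 93.7, 85.7 and 39.9 CPM, the last from 7 UMIs in 18 cells. SMAD7 in CD4 helper T-like cells was 3.44, 7.72 and 5.83 CPM, from 12, 34 and 24 UMIs, a sham over naïve ratio of 1.13 (0.18 to 2.25). SMAD7 in cytotoxic memory T-like cells was 11.2, 4.34 and 17.96 CPM, from 15, 5 and 25 UMIs. The SCI over sham ratio of SMAD7 in these cells was 1.94 (0.64 to 3.79), and that of TGFBR1 was 0.76 (0.10 to 1.484).

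Cells of the SCI cord were compared with those of SCI blood to ask what differs at the lesion site. SMAD7 was at 22.6 CPM in cord (14.5 to 33.7) against 6.89 in blood (5.82 to 8.09), a log2 ratio of 1.74 (1.03 to 2.34). SKIL was at 73.5 CPM (58.1 to 91.8) against 27.3 (25.2 to 29.6), a ratio of 1.44 (1.07 to 1.77), and TGFBR1 at 49.0 (36.6 to 64.3) against 29.7 (27.5 to 32.1), a ratio of 0.73 (0.28 to 1.13). SMAD3 was lower in cord, at 26.4 CPM (17.5 to 38.1) against 50.3 (47.4 to 53.4), a ratio of −0.91 (−1.53 to −0.39). Thus 3 of 8 genes were at least 1.5-fold higher, where 22.2% of all genes were, and 1 of 8 lower, where 17.8% of all genes were.

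Of the remaining genes, TGFBR2 was at 116 against 81.1 CPM, a ratio of 0.52 (0.24 to 0.78), and SMAD2 at 90.5 against 124 CPM, a ratio of −0.45 (−0.76 to −0.16). TGFB1 and SKI had ratios of −0.095 (−0.28 to 0.077) and 0.30 (−0.22 to 0.74), with intervals that include 0.

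The cord values came from few molecules, 24 UMIs of SMAD7 in 21 of 118 cells, 78 of SKIL in 45 cells, 52 of TGFBR1 in 34 cells and 28 of SMAD3 in 25 cells. No cell had more than 3 UMIs of SMAD7 or more than 6 of SKIL. Without the cell with most UMIs, SMAD7 was at 20.0 CPM and SKIL at 68.4 CPM in cord. After thinning to 1000 UMIs, 3 of 118 cord cells had a SKIL UMI, 2.54% (0.527% to 7.25%) against 1.92% (1.59% to 2.30%) in SCI blood, where the shares without thinning were 38.1% and 8.30%. With cells thinned in this way the log2 ratio was 0.45 for SKIL and 1.47 for SMAD7, with 3 and 1 cord cells holding a UMI, so that neither difference was detectable at that depth. SMAD3 had a UMI in 4.24% of thinned cord cells (1.39% to 9.61%) against 3.63% in SCI blood, so that its lower level was not seen there.

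The cord library also held another mix of cells. Basophil or mast-like cells made up 22.9% of it (27 cells) against 2.29% of SCI blood, and markers of monocytes, 8 of 8 detected in both, summed to 14692 CPM against 514 CPM. TGFBR1 and SMAD7, both high in basophil or mast-like cells, had ratios within that class whose intervals include 0. TGFBR1 had 86.0 CPM in cord against 94.3 in SCI blood, a ratio of −0.12 (−0.94 to 0.63), and SMAD7 had 31.3 against 32.8 CPM from 8 and 16 UMIs, a ratio of −0.025 (−1.50 to 1.24). A finer clustering set 12 of the 27 cord cells apart in an eosinophil-like cluster that held 6 of the 136 cells of this class in SCI blood. In the finer cluster that held the other 15 cord cells and 130 cells of SCI blood, TGFBR1 was at 61.3 CPM in cord (26.5 to 121) against 97.8 in blood (71.3 to 131), and SMAD7 at 46.0 CPM (16.9 to 100.01) against 32.6 (18.2 to 53.8), with overlapping intervals. With the same weight for each of the 5 classes in both libraries, the cord over blood ratios were 0.30 for TGFBR1, 0.70 for SMAD7, 1.97 for SKIL and −0.89 for SMAD3.

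Within the T clusters, which were 68 cells in cord, SKIL stood out in CPM. It reached 109 CPM in cord (79.2 to 145) against 22.3 in SCI blood (20.0 to 24.7), a log2 ratio of 2.30 (1.80 to 2.74), from 45 UMIs in 24 cells. By class, SKIL was at 173 CPM in unnamed T cells (102 to 273, 18 UMIs) against 27.6, at 102 CPM in CD8 T-like cells (40.9 to 209, 7 UMIs) against 29.9, and at 82.1 CPM in CD4 helper T-like cells (35.4 to 162, 8 UMIs) against 12.9. In Treg-like cells 3 UMIs gave 27.7 CPM (5.70 to 80.8) against 9.55. The cord level of SKIL in T clusters was also above the 27.6 CPM of both naïve and sham blood. Without thinning, 35.3% of T cluster cells in cord had a SKIL UMI, against 6.51% in SCI blood. With cells thinned as above, 1 of the 68 cord cells had one, 1.47% (0.0372% to 7.92%) against 1.62% (1.27% to 2.02%). The difference was thus not seen at that depth, where so few cord cells with a UMI cannot decide it.

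SMAD3 in the T clusters was at 29.0 CPM in cord (15.0 to 50.6) against 53.3 in SCI blood, a ratio of −0.82 (−1.84 to −0.067). SMAD7, from 7 UMIs, was at 16.9 against 7.20 CPM, with a ratio of 1.32 (−0.12 to 2.32), and TGFBR1 at 38.6 against 28.7 CPM, with a ratio of 0.47 (−0.39 to 1.14). In the T clusters, 2 of 8 genes were at least 1.5-fold higher and 1 lower, where 21.8% and 15.1% of all genes were. Over the 5 classes with at least 10 cells in cord, 15 of 37 pairs of gene and class were higher and 5 lower, where 26.7% and 19.4% of such pairs over all genes were. Of these pairs, 6 and 1 had intervals clear of 0, for which no share over all genes is given. TGFBR2 was among them in the unnamed T cells, at 134 CPM against 66.0 (ratio 1.07, 0.10 to 1.84), and SMAD3 in Treg-like cells, at 18.4 CPM from 2 UMIs against 76.4.

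**Figure D4:**
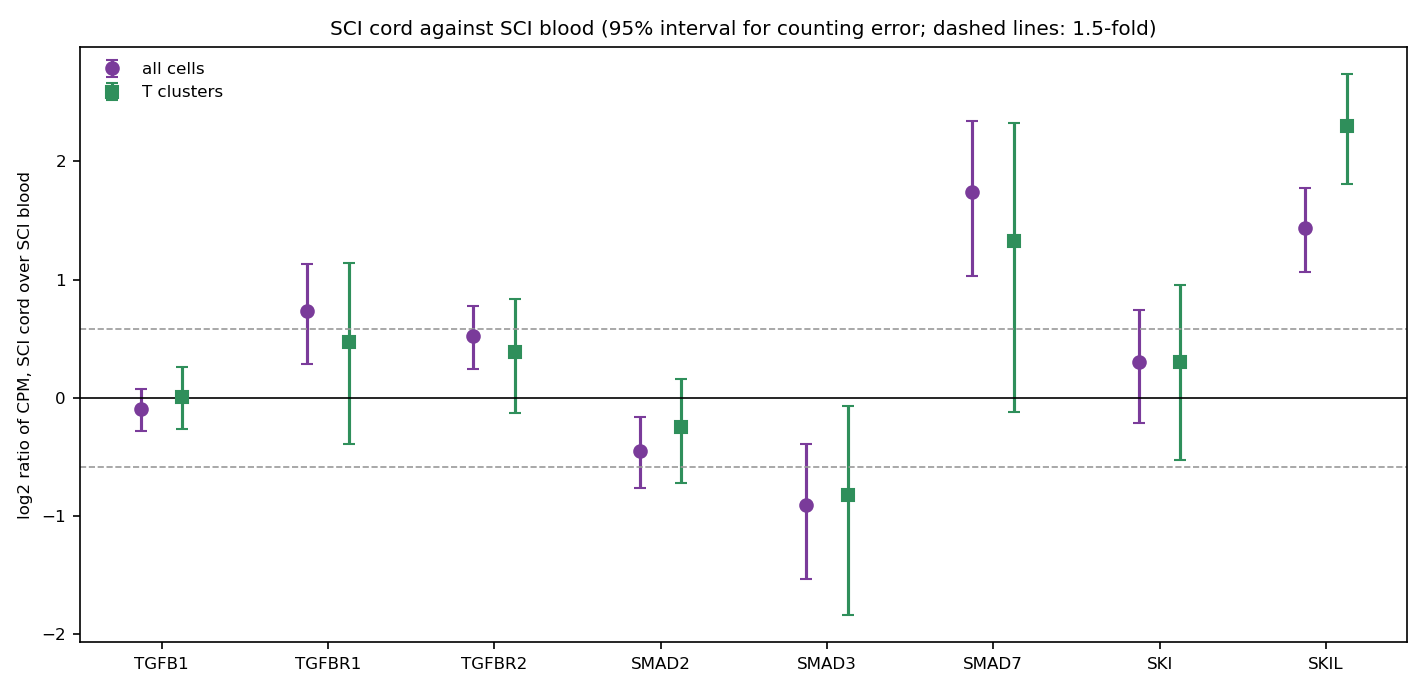
Log2 ratio of CPM in SCI cord over SCI blood for the 8 genes, over all cells (circles) and the T clusters (squares), with exact 95% intervals for counting error; dashed lines mark 1.5-fold. SKIL is the gene whose interval lies above the upper dashed line in both, and SMAD3 lies below 0 in both.

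Cord tissue was digested with papain at 37 °C and enriched with magnetic beads, steps that blood did not pass through, so that tissue and handling cannot be told apart. Of 18 genes known to respond to handling and stress, a list chosen after the data had been seen, 12 were at least 1.5-fold higher in cord over SCI blood and 0 lower, with a median log2 ratio of 1.31. Of all genes tested, 22.2% were higher and 17.8% lower. The early response gene FOS had 1358 CPM in cord and 125 CPM in SCI blood. Over the T clusters 13 of the 18 were higher and 0 lower, where 21.8% and 15.1% of all genes were. The summed level of the 18 there was 9774 CPM in cord against 5658 to 6527 CPM in the 3 blood libraries. Their part in the cord values of SKIL and SMAD7 was not tested.

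Basophil or mast-like cells of the cord had 164 CPM of TGFBR2 (118 to 222) against 96.3 in SCI blood (70.8 to 128), a log2 ratio of 0.77 (0.13 to 1.40). The 12 eosinophil-like cells of the cord, led by CLC and holding EPX, had 279 CPM of TGFBR2 (195 to 389), and too few cells of SCI blood were in their cluster for a level there. The other 15 cord cells had 53.6 CPM (21.6 to 110.5), against 89.1 CPM (63.9 to 121) in the 130 cells of SCI blood in the same finer cluster, lower in cord with overlapping intervals.

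A wider list of 63 pathway genes and a list of 18 genes known to respond to TGF-beta set the 8 genes in context. In sham over naïve blood, 3 of 54 pathway genes tested were at least 1.5-fold higher and 3 lower, in SCI over naïve blood 1 of 55 and 5, and in SCI over sham blood 2 of 54 and 8, where the shares of all genes were 6.76% and 6.12%, 8.71% and 8.61%, and 5.77% and 6.98%. The medians were 0.19, 0.14 and −0.039. Of 17 target genes tested, 0, 2 and 2 were higher and 2, 4 and 3 lower in the same order, with medians of 0.019, 0.058 and −0.054. Naïve blood stood apart in HSP90B1, a chaperone of the endoplasmic reticulum, which was at 856 CPM in naïve blood against 286 in sham and 265 in SCI blood, and at 3234 CPM in plasma-like cells. CDKN1A, an inhibitor of the cell cycle and a target, was at 39.5 CPM in naïve blood against 17.97 and 12.8 CPM. In blood CDKN1A was highest in monocyte-like and plasma-like cells, at 124 and 108 CPM. Plasma-like cells were 6.14% of naïve blood cells against 0.0645% in sham and 0.0506% in SCI blood. Their part in the levels of HSP90B1 and CDKN1A was not tested. ID2, a relative of ID1, was higher in SCI blood, at 216 CPM against 132 in naïve blood. Sham blood was close to SCI blood at 196 CPM, with a sham over naïve log2 ratio of 0.57 (0.50 to 0.64), short of 1.5-fold. PCSK5, a proprotein convertase, was higher in SCI blood, at 7.49 CPM against 1.86 in naïve and 2.92 in sham blood. In blood PCSK5 was highest in naïve T-like and CD8 T-like cells, at 36.3 and 17.3 CPM. Naïve T-like cells were 2.78%, 2.62% and 9.81% of naïve, sham and SCI blood cells, and CD8 T-like cells 10.5%, 13.4% and 24.4%. The part of these shares in the PCSK5 levels was not tested. THBS1, which can activate latent TGF-beta, was lower in SCI blood, at 0.698 CPM against 2.95 and 3.12, and DAB2, an adaptor in receptor traffic, at 2.42 against 4.35 and 6.38 CPM. Both were highest in monocyte-like cells, of which SCI blood had 0.303% against 2.20% in naïve and 1.96% in sham blood.

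In SCI cord over SCI blood, 13 of 50 pathway genes were higher and 7 lower, with a median of −0.16, and 8 of 16 target genes were higher and 2 lower, with a median of 0.71, against a median of −0.013 over all genes tested, of which 22.2% were higher and 17.8% lower. Among the targets, ID1, an inhibitor of helix-loop-helix factors, was at 78.2 CPM in cord against 0.745 in blood, TGFBI, a matrix protein made by monocytes, at 35.8 against 1.63, and RGS16, a regulator of G protein signalling, at 76.4 against 3.96. JUNB, which is also on the list of handling genes, was at 869 against 228 CPM, and BHLHE40, a transcription factor, at 113 against 29.7 CPM. On the pathway list, DAB2 was at 32.1 against 2.42 CPM, and RUNX1, a partner of SMADs, at 139 against 50.8 CPM. The higher targets ID1, ID2, BHLHE40 and TIMP1 were, in blood, highest in basophil or mast-like cells, and TGFBI, JUNB and CDKN1A in monocyte-like cells, as were RUNX1 in the former and DAB2 in the latter. These classes made up 22.9% and 5.93% of cord cells against 2.29% and 0.303% of SCI blood cells, and their part in the cord levels was not tested. ID1 was at 24.0 CPM in basophil or mast-like cells of blood, and RGS16 at no more than 10.1 CPM in any class. Some targets went the other way: PMEPA1, a membrane protein that sequesters SMADs, was at 11.3 CPM in cord against 34.6 in blood, and TGIF1, a corepressor, at 13.2 against 35.2 CPM. PMEPA1 was at 191 CPM in B-like cells of the blood libraries, which were 7.63% of cord and 15.8% of SCI blood cells. NEDD4L, a ubiquitin ligase that acts on SMADs, was at 3.77 against 18.7 CPM.

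Several pathway genes marked a class, and these were chosen after their values had been seen. LRRC32, which encodes the docking protein that displays latent TGF-beta on Treg cells, had 42 UMIs in blood and 4.33 CPM in Treg-like cells, against at most 0.529 CPM in any other class. The TGF-beta activating integrin subunit ITGB8 was highest in unnamed T cells at 10.8 CPM and stood at 5.47 CPM in Treg-like cells. NRROS, the docking protein of myeloid cells, was highest in basophil or mast-like and monocyte-like cells at 71.9 and 50.7 CPM. The coreceptor TGFBR3 was highest in cytotoxic memory T-like cells at 77.8 CPM. LDLRAD4, another inhibitor that is itself a target, was highest in Treg-like and unnamed T cells at 83.4 and 73.1 CPM, and USP15, a deubiquitinase that acts on TGFBR1, in Treg-like cells at 474 CPM.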

How the data were processed

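The authors made UMI counts with CellRanger 3.1.0 (version per the file headers, builds hg38 and mm10 per the labels) and deposited these counts without normalisation. No other unit was used. Libraries held 34161760 UMIs of both species in naïve blood, 36007208 in sham blood and 36487994 in SCI blood, and 4206461 in the cord library. The 8 genes, the lists and the cell type markers were chosen with earlier results of these data known.

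Barcodes with over 50% human UMIs were kept, and those over 3 MADs from the library median removed (low UMIs or genes, high mitochondrial or ribosomal share). Doublets were marked by Scrublet scores at 0.8% per 1000 barcodes, and marked barcodes with over 3000 genes removed (258). Cells were clustered in scanpy 1.11.5 (2000 variable genes without the 8 genes and both lists, 30 components, 15 neighbours, Leiden resolution of 0.8). Clusters were named by markers among 10 leading genes or, with none there, by the median fold of a class's markers, with rules for ties and detection in 10% of cells settled with clusters known. Ratios used 0.5 added counts and features with at least 20 counts. Clopper-Pearson, Poisson and conditional binomial intervals came from scipy 1.17.1. Thinning to 1000 UMIs left out 0 cells. TMM factors (edgeR 4.0.16) and size factors (DESeq2 1.42.0) served as alternatives. In simulated counts, the direction was right for 98.0% of changed genes in cord over blood at both fold sizes, and for 98.8% to 100% in the blood comparisons. Pathway genes were named where past 1.5-fold with at least 50 counts, up to 5 each way per comparison. The nearest 3 genes by Pearson r of log2 CPM are given per gene, among genes with at least 50 CPM in a class of 50 cells, leaving out ribosomal, mitochondrial, sex-linked, immunoglobulin and T cell receptor genes.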

Additional observations from a re-analysis of the deposited data

Results flagged for a closer look

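SMAD3 in SCI over naïve blood was lower in CD8 T-like cells, with a log2 ratio of −1.03 (42.4 to 20.7 CPM), and higher in cytotoxic memory T-like cells, at 0.70, and in unnamed T cells, at 0.61, with intervals clear of 0 on opposite sides. The difference between the classes was not tested, since each condition has 1 library.

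Mouse barcodes lie outside the comparisons. In the 93 mouse barcodes of the SCI cord, mouse Tgfb1 was at 282.7 CPM (260.1 to 307), with a UMI in 91.4% of them, against 12.8, 182 and 116 CPM in the mouse barcodes of naïve, sham and SCI blood. The cord barcodes had a median of 26533 mouse UMIs, those of blood 1816.5 to 2048.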

How the results depend on the processing

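No paired analysis was possible because each group has 1 library, and no library could be left out. With scaling by UMIs per cell the median of all genes was 0.41, 0.12, −0.27 and 1.30, against 0.068, 0.066, 0.012 and −0.013 as reported, in sham over naïve, SCI over naïve, SCI over sham blood and SCI cord over SCI blood. Under it 3 genes were higher in sham over naïve blood, 1 lower in SCI over sham blood, and 7 higher and 0 lower in cord, where SMAD3 turned to 0.41. No share of all genes past 1.5-fold is given for this scaling. With cells thinned to 1000 UMIs, which put the median of all genes in cord at 0.41, SMAD3 in cord turned to 0.24, 0 genes were lower there and 1 was lower in SCI over sham blood. With 2-fold as the limit, 0 of the 8 genes were lower in cord. TMM and size factors, 90% human UMIs, no MAD filter and the mean of per-cell CPM kept all counts of the 8 genes within 1.5 times. With all marked doublets removed, 11 pairs of gene and class were lower in SCI over sham blood. The cause of these shifts was not tested.

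Without the filter on low counts, sham over naïve blood had 6 pathway genes lower and 1 target higher, SCI over naïve blood 3 higher and 8 lower pathway genes, SCI over sham blood 6 higher and cord 20 higher. At 2-fold, sham over naïve blood had 1 pathway gene higher, 1 lower and 1 target lower, SCI over naïve blood 1 target higher and 3 pathway genes lower, and SCI over sham blood 0 targets higher and 5 pathway genes lower. The shares of all genes under these settings are not given. TGFBR1, TGFBR2, SMAD7 and SKIL kept their leading class in all blood libraries at resolutions of 0.4 and 1.5. TGFB1 was led in all 3 at 1.5 by an unnamed cluster that was led by ZNF683, not by FZD3. SMAD3 was led by CD4 helper T-like cells in sham blood at both. In SCI blood SMAD3 was led by Treg-like cells at 0.4 and CD4 helper T-like cells at 1.5. Neither resolution kept the unnamed T cells led by FZD3 as an unnamed class. SMAD2 in naïve blood was led by CD8 T-like cells at 0.4. SKI in naïve blood was led by monocyte-like in place of CD4 helper T-like cells at both. The 118 cord cells limit what can be seen there, and depth limits SMAD7 throughout.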

Other observations

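Mouse cells sorted along with the human cells carried the mouse counterparts of these genes. In the 93 mouse barcodes of SCI cord, Tgfbr1 was at 266 CPM, Tgfbr2 at 196 CPM, Skil at 179.8 CPM, Ski at 140.1 CPM and Smad7 at 124 CPM, each with a UMI in 68.8% to 88.2% of barcodes, while Smad3 was at 12.2 CPM. In the mouse barcodes of sham and SCI blood, Tgfbr1 was at 51.5 and 32.2 CPM and Smad7 at 49.3 and 33.9 CPM. In those of naïve blood, Tgfbr1 had 6 UMIs and Smad7 had 4.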
